A study of Mus musculus with 8 samples.

Results

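The proteasome genes were followed in RNA-seq of BMDMs, which are macrophages differentiated in vitro from bone marrow cells. They were all genes whose symbol is Psm, a letter from a to g and a number, which gave 49 of the 21080 genes in the tables. The comparison of interest was that of the 3 immunosubunits Psmb8, Psmb9 and Psmb10 with the other 46 genes. Of the 49 genes, 48 reached a mean relative coverage of at least 1 over the 8 samples and were tested among 11372 genes. The gene left out was Psmb11, the catalytic subunit of the thymus form, which was listed at 0 in 6 samples and at no more than 0.000824 in the other 2.

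The 8 samples fell into 4 groups of 2, WT and Nudt21-cKO BMDMs at 0 h without stimulation and at 4 h, where LPS was given for 4 h after IFNγ overnight. Nudt21 is an RNA-binding protein that takes part in choosing where a transcript is cleaved and polyadenylated. The cKO mice were Nudt21 fl/fl LysM Cre, in which Cre expressed from the lysozyme M locus of myeloid cells removes exons 2 and 3 of Nudt21, and the WT mice were sex-matched littermates that carried the same Cre. All mice were of the C57BL/6 background, their age is not given in the sources used here, and a sample holds cells of 2 mice, so the p-values measure the spread between pools. The tables do not name the unit of their values, which were taken as mean read coverage per base of a gene because StringTie is the tool named for them and, for genes with few reads, 27.8% of 1657 values times transcript length came within 0.02 of a whole number. Relative coverage is that value divided by its sum over all genes of the sample and multiplied by 1000000, and levels are set beside each other between genes only as far as this reading of the unit holds.

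The summed coverage was between 14950347 and 17954882 per sample, and replicates correlated with r between 0.989 and 0.994 over the tested genes. Nudt21 had a relative coverage of 35.1 to 45.6 in the 4 WT samples and 6.42 to 9.71 in the 4 cKO samples. The 8 macrophage markers examined were all present, with Csf1r between 741 and 2796, and the lowest was Lyz2, the locus that hosts the Cre, between 29.2 and 77.5. Their summed level, most of it Csf1r, Cd68 and Adgre1, was 7571 to 8290 at 0 h and 3653 to 4103 at 4 h. With stimulation 2 of the 8 were called higher in each genotype (Fcgr1 in both, Spi1 in WT and Mertk in cKO) and 4 lower in WT and 5 in cKO, against 16.9% and 70.1% of all tested genes in WT and 17.3% and 69.2% in cKO. Of 20 markers of other cell types, 14 stayed below a mean of 1, among them Cd3e and Ncr1, and the summed level of the 20 was 479 to 594 at 0 h and 322 to 413 at 4 h. That sum was mostly S100a8 (306 to 539), and the granulocyte genes Elane and Mpo were at 20.7 to 26.8 and 13.7 to 18.1 at 0 h and at 5.06 to 6.92 and 4.26 to 8.02 at 4 h. The part of these markers in the results below was not tested.

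The proteasome degrades proteins that carry ubiquitin. Its 20S core is a barrel of outer rings of α subunits (Psma genes) and inner rings of β subunits (Psmb genes), of which Psmb5, Psmb6 and Psmb7 cut peptide bonds. In cells exposed to interferon, Psmb8 (β5i, LMP7), Psmb9 (β1i, LMP2) and Psmb10 (β2i, MECL-1) are built into new cores in place of Psmb5, Psmb6 and Psmb7, and the resulting immunoproteasome yields peptides suited to MHC class I molecules. The 19S particle (Psmc and Psmd genes) recognizes ubiquitin and feeds unfolded substrates into the core, PA28 (Psme1 and Psme2) opens the core without ubiquitin, and the Psmg genes encode chaperones of core assembly.

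Short promoter stretches are shown for the induced genes Psmb8 and Psme1 and for the constitutive catalytic genes Psmb5 and Psmb6, because these genes carry the contrast that follows. They come from RefSeq promoter windows of 300 bases on GRCm38.p6, which were given for 41 of the 49 genes, and each is written 5′ to 3′ on the gene's strand with the motif match in capitals. The RefSeq start of Psmb8 lies 474 bases, and that of Psme1 371 bases, downstream of the first base of the gene in GENCODE M21, so both stretches lie inside those annotated genes. The match falls in an exon of 1 of 7 transcripts of Psmb8 and of 6 of 13 of Psme1, while those of Psmb5 and Psmb6 lie in none. Of the 7 transcripts of Psmb8, 0 start within 50 bases of the RefSeq start, and of the 13 of Psme1, 5 do.
Psmb8, chr17:34198088-34198117, plus strand, GAS: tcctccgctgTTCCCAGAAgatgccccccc
Psme1, chr14:55578493-55578522, plus strand, ISRE: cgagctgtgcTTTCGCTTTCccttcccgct
Psmb5, chr14:54618023-54618052, minus strand, ARE: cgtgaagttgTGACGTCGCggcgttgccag
Psmb6, chr11:70525338-70525367, plus strand, ARE: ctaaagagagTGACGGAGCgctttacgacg

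The letters searched, on both strands, were TTCNNNGAA for the interferon-γ activated site (GAS), GAAA followed after any 2 bases by GAAA for the interferon-stimulated response element (ISRE), TGACNNNGC for the antioxidant response element (ARE) and GGG followed after any 2 bases by TTTCC for an NF-κB site. The GAS letters occur in the windows of 9.55% of 27025 genes and of 3 proteasome genes (Psmb8, Psmd2 and Psmg1). The ISRE letters occur in 3.99% of genes and in 5 proteasome genes (Psmb3, Psmd4, Psmd9, Psme1 and Psmg4), and the match in Psme1 is to the reverse complement. The ARE letters occur in 14% of genes and in 6 proteasome genes (Psmb5, Psmb6, Psmc6, Psmd9, Psmd12 and Psme4), and the NF-κB letters in 1.89% of genes and in 0 proteasome genes. Of genes with the GAS letters, Psmb8 rose with stimulation, while Psmd2 (log2 -0.35 in WT and -0.43 in cKO) and Psmg1 (-1.61 and -1.31) fell. Of those with the ISRE letters, Psme1 rose by 2.24 in both genotypes. Psmb3 had 0.09 and 0.39, Psmd4 -0.05 and 0.01, Psmd9 -0.63 and -0.46 and Psmg4 -0.06 and -0.12. With median-centring Psmd2 and Psmd9 were called higher. Neither motif is listed for Psmb9, Psmb10 or Psme2. A match is a description of the sequence and not a site of binding.

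The first question was how stimulation changed the catalytic subunits. All 3 immunosubunits rose in both genotypes, 3.86-fold to 6.18-fold in WT and 6.23-fold to 9.57-fold in cKO, while Psmb6 and Psmb7 rose 1.74-fold to 1.93-fold and Psmb5 was not called higher in either, though it was in both where each sample was centred on its median gene. Psmb8 had a relative coverage of 71.1 and 78.8 for WT versus 57.5 and 57.8 for cKO at 0 h, and of 362.5 and 388 for WT versus 515 and 507 for cKO at 4 h. Every sample at 4 h lay above every sample at 0 h, and the genotypes did not overlap at either time, with cKO below WT at 0 h and above it at 4 h. The log2 fold change of Psmb8 at 4 h against 0 h was 2.32 in WT (standard error 0.083, adjusted p = 5.57e-09 from limma) and 3.15 in cKO (adjusted p = 8.24e-10 from limma). In bulk RNA such a change cannot be told apart from a change in the share of cells that express the gene.

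Psmb9 was the lowest of the 6 catalytic genes compared at 0 h, at 31.5 and 22.1 for WT versus 14.9 and 14.9 for cKO, and it reached 157 and 171 for WT versus 150 and 137 for cKO at 4 h. At 0 h the cKO samples lay below both WT samples, and at 4 h they again lay below. The distance was smaller at 4 h only on the log2 scale (-0.19, against -0.82 at 0 h). In relative coverage the group means were 26.8 and 14.9 at 0 h and 163.9 and 143.7 at 4 h (WT and cKO). Its log2 fold change with stimulation was 2.63 in WT (standard error 0.148, adjusted p = 1.19e-07 from limma) and 3.26 in cKO (adjusted p = 3.13e-08 from limma). Psmb9 lies on chromosome 17 from 34181987 to 34187764, next to and on the opposite strand from the peptide transporter gene Tap1, and 5.8% of its annotated exon bases are shared with Tap1. The stated library kit does not mark strand, so reads in those bases cannot be assigned to either gene, and Tap1 itself rose from 34.4 and 38.7 to 628 and 636 in WT.

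Psmb10 was at 78.3 and 75.2 for WT versus 64.7 and 71.5 for cKO at 0 h, and at 294 and 299 for WT versus 424 and 424 for cKO at 4 h. As for Psmb8, the order of the genotypes was opposite at the 2 times and the groups did not overlap. The log2 fold change was 1.95 in WT (standard error 0.081, adjusted p = 1.50e-08 from limma) and 2.64 in cKO (adjusted p = 2.32e-09 from limma). Psmb10 lies apart from the other immunosubunits, on chromosome 8 from 105935735 to 105938444, whereas Psmb8 lies on chromosome 17 from 34197721 to 34201454 in the MHC region with Psmb9 (GENCODE M21 on GRCm38), where 14.7% of its annotated exon bases overlap the antisense gene Gm20496.

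Psmb5, which carries the chymotrypsin-like activity of the standard core, was at 146 and 121 for WT versus 137 and 142 for cKO at 0 h. At 4 h it was at 102 and 103 for WT versus 147 and 155 for cKO. Its log2 fold change with stimulation was -0.38 in WT (standard error 0.099, adjusted p = 0.00469 from limma), and 0.11 in cKO (adjusted p = 0.304 from limma), and without WT replicate 1 of 0 h the value in WT was -0.24. Where each sample was centred on its median gene these became 0.67 in WT and 1.02 in cKO (adjusted p = 2.9e-05 from limma). A processed pseudogene, Gm3375, matches 796 bases of the Psmb5 transcript at 98.9% identity, so its reads may be shared.

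Psmb6, the caspase-like subunit, was at 223 and 207 for WT versus 307 and 293 for cKO at 0 h, and at 373 and 376 for WT versus 564 and 538 for cKO at 4 h. It was the highest of the 6 catalytic genes in every sample at 0 h, and cKO exceeded WT at each time with no overlap. Stimulation raised it by a log2 fold change of 0.80 in WT (adjusted p = 5.31e-06 from limma) and 0.88 in cKO (adjusted p = 3.12e-06 from limma). Psmb7, the trypsin-like subunit, was at 99.8 and 97.5 for WT versus 122 and 132 for cKO at 0 h, and at 171 and 212 for WT versus 243 and 219 for cKO at 4 h. Its log2 fold changes were 0.95 in WT (adjusted p = 1.94e-05 from limma) and 0.86 in cKO (adjusted p = 4.32e-05 from limma). Of the annotated exon bases of Psmb7, 11.8% are shared with Nek6 on the opposite strand, where reads cannot be assigned to either gene.

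**Figure D1:**
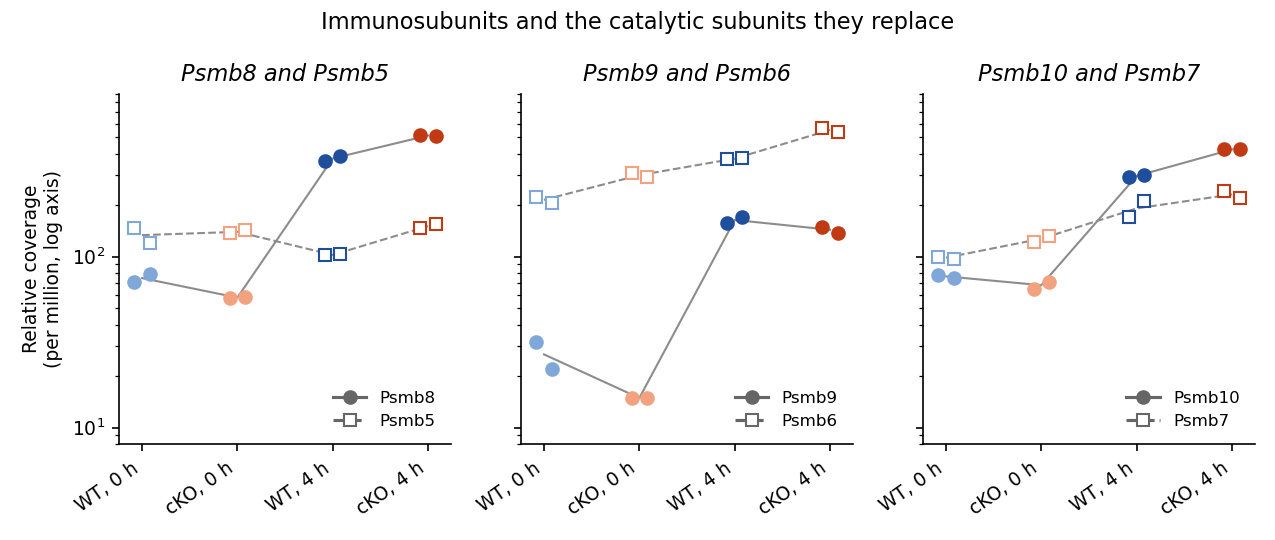
Relative coverage (coverage per 1000000 of the summed coverage, log axis) of each immunosubunit (filled circles, solid line) and the constitutive subunit it replaces (open squares, dashed line) in the 4 groups, with 1 point per sample and lines through the group means. Psmb8 and Psmb10 cross above Psmb5 and Psmb7 between 0 h and 4 h, and Psmb9 stays below Psmb6.

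The ratio of an immunosubunit to its constitutive partner was taken within each sample, where the scaling between samples cancels. At 0 h Psmb8 was at 0.487 and 0.651 of the level of Psmb5 (WT) or 0.420 and 0.406 (cKO), and at 4 h it was at 3.56 and 3.77 times (WT) or 3.50 and 3.28 times (cKO) that level. At 0 h Psmb10 was at 0.785 and 0.771 of Psmb7 (WT) or 0.530 and 0.540 (cKO), and at 4 h at 1.72 and 1.41 times (WT) or 1.74 and 1.93 times (cKO). At 0 h Psmb9 was at 0.142 and 0.108 of Psmb6 (WT) or 0.0489 and 0.0513 (cKO), and at 4 h at 0.420 and 0.456 (WT) or 0.266 and 0.255 (cKO). So Psmb8 and Psmb10 passed from below to above their partners, and Psmb9 stayed below Psmb6 in all 8 samples. Summed over the 3 immunosubunits, the relative coverage was 137 to 181 at 0 h and 813 to 1089 at 4 h, and summed over the 3 constitutive catalytic genes it was 425 to 568 at 0 h and 646 to 955 at 4 h. The immunosubunit sum was the lower in all 4 samples at 0 h and the higher in all 4 at 4 h.

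The mean log2 ratio rose with stimulation by 2.87 for Psmb8 to Psmb5, 2.1 for Psmb9 to Psmb6 and 1.39 for Psmb10 to Psmb7. An exact two-sided permutation of the stimulation labels within genotype gave p = 0.0556 for each of these, the smallest p that the 36 arrangements allow, and 0.0667 after Benjamini-Hochberg adjustment over the 6 ratio tests. Between genotypes, the log2 ratio of Psmb9 to Psmb6 was lower in cKO by 1.30 at 0 h and 0.75 at 4 h, with no overlap at either time. The mean genotype difference was -1.02 for Psmb9 to Psmb6 and -0.28 for Psmb8 to Psmb5 (exact permutation p = 0.0556 for each) and -0.15 for Psmb10 to Psmb7 (exact permutation p = 0.333). The difference for Psmb8 to Psmb5 was -0.45 at 0 h, or -0.24 without WT replicate 2 of 0 h, and -0.11 at 4 h, or -0.067 without cKO replicate 4 and -0.072 without WT replicate 2 of 4 h. The Psmb10 to Psmb7 ratio was lower in cKO by 0.54 at 0 h and higher by 0.24 at 4 h, the latter 0.38 without WT replicate 1 of 4 h and 0.096 without WT replicate 2 of 4 h.

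**Figure D2:**
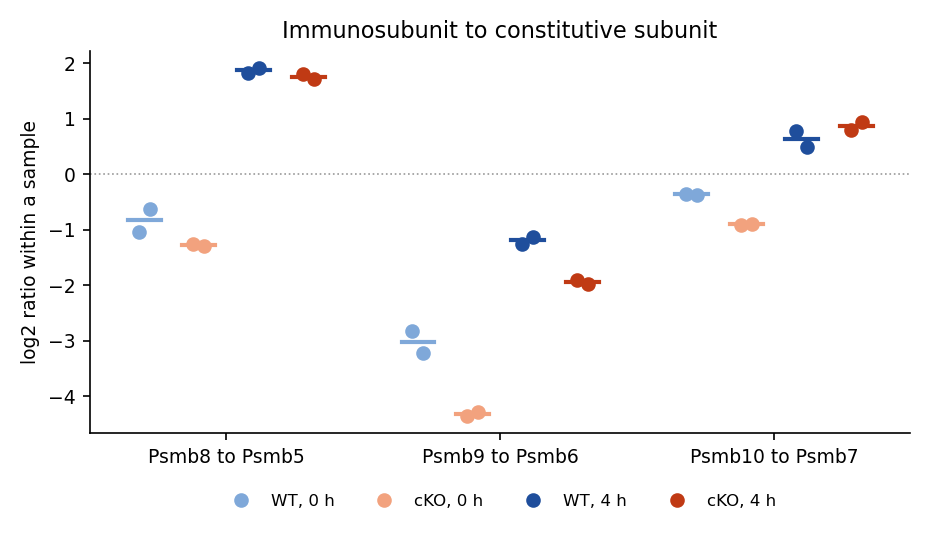
The log2 ratio of each immunosubunit to its constitutive partner in each sample (points) with the group mean (bars); the dotted line marks equal levels. The ratio of Psmb9 to Psmb6 is below 0 in all 8 samples and lowest in cKO at 0 h, at -4.35 and -4.29.

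The PA28 activator rose with the immunosubunits. Psme2, the β subunit of PA28, had the largest rise of all proteasome genes in WT, from 110 and 95.2 at 0 h to 1205 and 965 at 4 h, a log2 fold change of 3.40 (standard error 0.124, adjusted p = 6.54e-09 from limma). In cKO it rose from 134 and 121 to 1097 and 1237, by 3.19 on the log2 scale. At 4 h it was the highest of the 49 genes in all 4 samples, and its genotypes overlapped. Psme1, the α subunit, rose from 167 and 149 to 732 and 761 in WT and from 142 and 148 to 694 and 681 in cKO. Its log2 fold change was 2.24 in both genotypes (adjusted p = 6.90e-09 in WT and 7.43e-09 in cKO from limma).

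Psme2b, listed as a gene of its own, rose from 45.3 and 42.5 to 248 and 238 in WT and from 47.7 and 49.6 to 297 and 292 in cKO. Its transcript matches Psme2 over 794 bases at 99.4% identity, so its values cannot be separated from those of Psme2. The nuclear activator Psme3 (PA28γ) and the PA200 activator Psme4 did not share the rise. Psme3 was at 76.2 and 75.1 for WT versus 90.0 and 90.3 for cKO at 0 h and at 58.8 and 62.5 for WT versus 61.2 and 63.3 for cKO at 4 h, with log2 fold changes of -0.32 and -0.53 (adjusted p = 0.00422 and 1.50e-04 from limma) that turned to 0.73 and 0.38 with median-centring, and with quantile normalization Psme3 was not called in WT (-0.020, adjusted p = 0.798 from limma). Psme4 was at 52.2 and 59.8 for WT versus 55.6 and 54.6 for cKO at 0 h and at 43.4 and 48.4 for WT versus 47.5 and 43.8 for cKO at 4 h, with log2 fold changes of -0.29 and -0.27 (adjusted p = 0.026 and 0.0318 from limma) that turned to 0.76 and 0.64 with median-centring. The call of Psme4 was lost in WT without WT replicate 2 of 0 h (adjusted p = 0.159) or WT replicate 1 of 4 h (0.11), and in cKO without any one of its 4 samples (0.0534 to 0.181, all from limma).

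Over all 48 tested proteasome genes, 19 were higher and 17 lower at 4 h than at 0 h in WT by limma at an adjusted p under 0.05, against 16.9% higher and 70.1% lower of all tested genes. In cKO 20 were higher and 14 lower, against 17.3% and 69.2%. The median gene fell by 1.04 on the log2 scale in WT and by 0.95 in cKO, while the median proteasome gene changed by 0.09 and 0.04, and 44 and 43 of the 48 lay above the median of all genes. With each sample centred on its median gene the counts became 43 higher and 3 lower in WT and 43 and 4 in cKO, against 40.6% higher and 38.1% lower of all genes in WT and 37.8% and 38.9% in cKO. With quantile normalization 25 were higher and 11 lower in each genotype, against 31.0% and 44.6% of all genes in WT and 29.4% and 45.2% in cKO. Under all 4 scalings 18 genes were higher in WT and 19 in cKO, among them Psma2 to Psma7, Psmb6, Psmb7, all 3 immunosubunits, Psmd10, Psmd11, Psme1, Psme2 and Psme2b in both. Lower under all 4 were Psmd5, Psmg1 and Psmg2 in WT and Psmd5 and Psmg2 in cKO. The share of all tested genes called under all 4 is not given, and it cannot exceed the lowest share of a single scaling. For genes higher that was 16.3% in WT and 17.3% in cKO, and for genes lower 38.1% and 38.9%.

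Of the calls higher at 4 h, 18 were shared by the genotypes, which is 18 of 19 in WT and 18 of 20 in cKO, against 87.2% of the calls in WT and 85.5% of those in cKO over all tested genes. By the rule in the study's methods, a fold above 1.5 with an unadjusted p under 0.05, 15 genes were higher and 6 lower in WT (14.1% and 62.8% of all tested genes) and 14 higher and 7 lower in cKO (14.5% and 61.2%). Without the immunosubunits and PA28, 13 genes were higher and 17 lower of 42 in WT at an adjusted p under 0.05, against 16.9% and 70.1% of all tested genes.

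**Figure D3:**
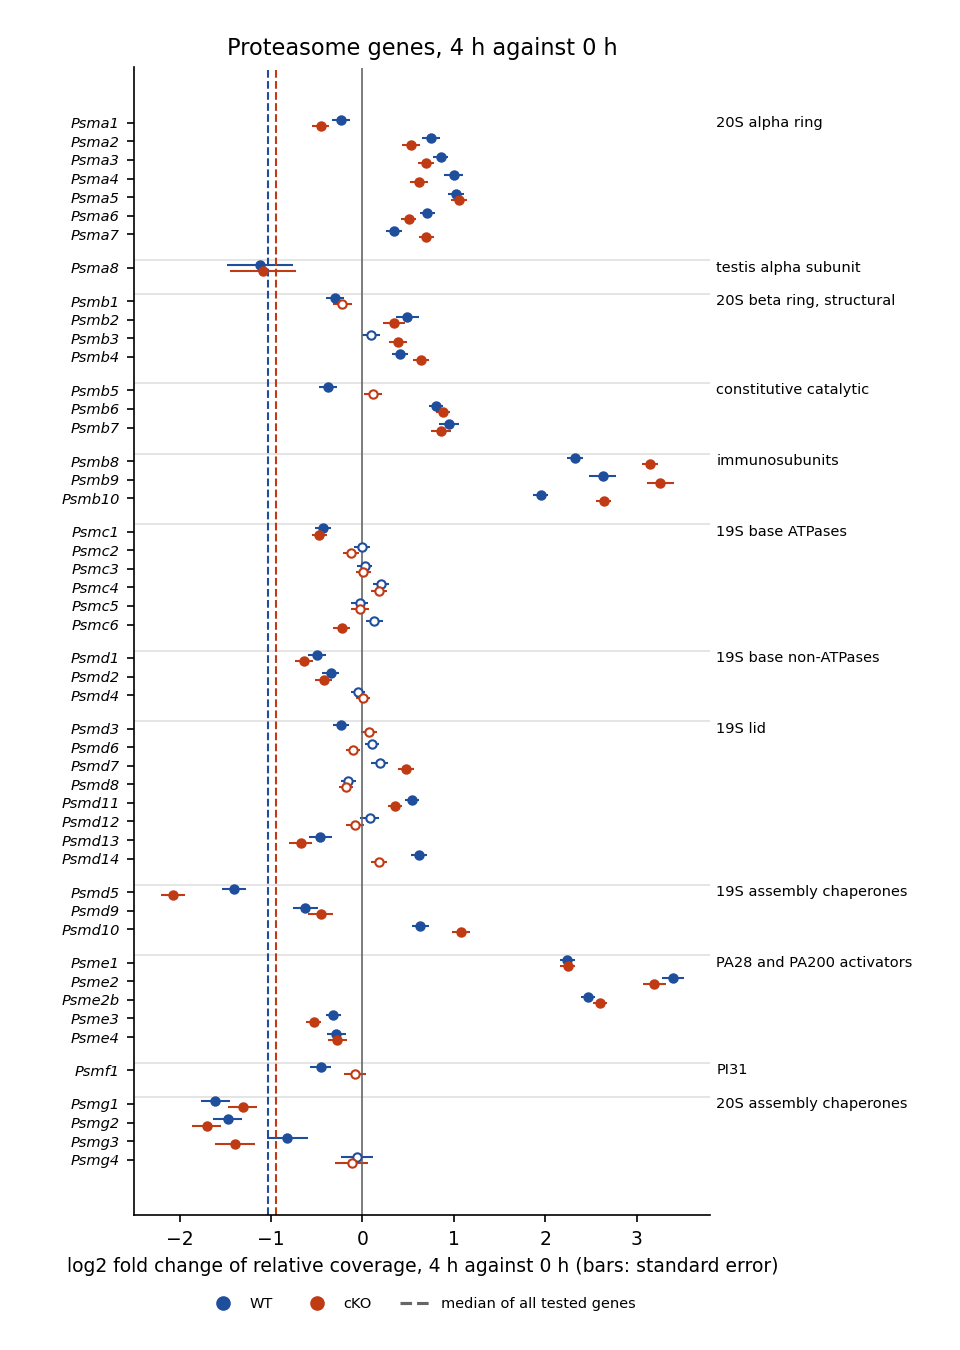
The log2 fold change of relative coverage at 4 h against 0 h (x axis) of the 48 tested proteasome genes, grouped by role, in WT (blue) and cKO (red), with standard errors; filled points passed an adjusted p under 0.05 and open points did not. Dashed lines mark the median of all tested genes, -1.04 in WT and -0.95 in cKO, and the immunosubunits, Psme1, Psme2 and Psme2b stand furthest to the right.

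By role, the outer ring of the 20S core moved together except for Psma1. Of its 7 genes, Psma2, Psma3, Psma4, Psma5, Psma6 and Psma7 were higher at 4 h in both genotypes and Psma1 was lower, against 16.9% higher and 70.1% lower of all tested genes in WT and 17.3% and 69.2% in cKO. With median-centring Psma1 was called higher too (0.82 in WT and 0.45 in cKO). Psma5 had the largest rise of the ring, a log2 fold change of 1.02 in WT and 1.05 in cKO, from 75.8 to 82.1 over the 4 samples at 0 h to 154 to 170.5 at 4 h. The processed pseudogenes Gm8394 and Gm12989 match 952 and 734 bases of the Psma5 transcript at 98.6% and 97.5% identity, so its reads may be shared. Psma1 had log2 fold changes of -0.23 in WT (adjusted p = 0.0427 from limma) and -0.46 in cKO, both above the fall of the median gene. Of the 4 structural β genes, Psmb2 and Psmb4 rose in both genotypes by 0.34 to 0.64, though with quantile normalization Psmb2 was not called in cKO (0.25, adjusted p = 0.119) nor Psmb4 in WT (0.20, adjusted p = 0.0542 from limma). Psmb3 was called in cKO at 0.39 (0.09 in WT, adjusted p = 0.385 from limma), and Psmb1 had -0.30 in WT (adjusted p = 0.0185) and -0.22 in cKO (adjusted p = 0.0645 from limma), again above the fall of the median gene. In both genotypes Psmb1 was called higher with median-centring and lower with quantile normalization. Psma8, the α subunit of the testis, was between 0.389 and 2.32 in the 8 samples.

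Of the 17 subunits of the 19S particle, 2 were higher and 5 lower in each genotype, against 16.9% and 70.1% of all tested genes in WT and 17.3% and 69.2% in cKO, with median log2 fold changes of -0.01 in WT and -0.08 in cKO. Against the same shares, the counts for the 14 core genes without the immunosubunits were 10 and 3 in WT and 11 and 1 in cKO, with medians of 0.60 and 0.57. With median-centring all 17 subunits of the 19S particle and all 14 core genes were called higher in both genotypes, against 40.6% of all tested genes in WT and 37.8% in cKO. The 6 ATPases of the base, which unfold the substrate, lay between -0.43 (Psmc1) and 0.20 (Psmc4) in WT. In the lid, the deubiquitinase Psmd14 rose in WT by 0.61 (adjusted p = 8.78e-05 from limma) and had 0.18 in cKO (adjusted p = 0.0814 from limma), while Psmd7, its partner in the deubiquitinating module, had 0.19 in WT (adjusted p = 0.0745 from limma) and rose by 0.48 in cKO. Psmd14 was called higher in cKO under the 3 other scalings (0.22 on the deposited scale, 1.09 with median-centring and 0.32 with quantile normalization), and Psmd7 in WT under 2 of them (1.24 with median-centring and 0.39 with quantile normalization). Psmd11, a lid scaffold subunit, rose in both genotypes, by 0.54 and 0.36.

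The assembly chaperones included the largest falls. Psmg1 (PAC1), which with Psmg2 (PAC2) starts the α ring, was at 19.6 and 17.9 for WT versus 18.1 and 16.0 for cKO at 0 h, and at 5.45 and 6.76 for WT versus 7.01 and 6.61 for cKO at 4 h. It fell by 1.61 on the log2 scale in WT (standard error 0.155, adjusted p = 4.89e-06 from limma), more than any other proteasome gene, and by 1.31 in cKO. Psmg2 had -1.47 in WT and -1.70 in cKO. Psmg3 had -0.82 in WT, where 0.23 and 0.39 were found with median-centring and quantile normalization, and -1.39 in cKO. With quantile normalization the falls in cKO were not called for Psmg3 (-0.32, adjusted p = 0.19) or Psmg1 (-0.24, adjusted p = 0.101, both from limma). Without WT replicate 1 of 0 h Psmg3 had -0.51 in WT, with an adjusted p of 0.0566 from limma. Psmg4 had -0.06 in WT and -0.12 in cKO and was not called.

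Of the 3 chaperones of the 19S base, Psmd5 and Psmd9 fell and Psmd10 rose. Psmd9 had -0.63 in WT (adjusted p = 0.00171) and -0.46 in cKO (adjusted p = 0.0107 from limma), and was called higher with median-centring (0.42 and 0.45) and with quantile normalization (0.31 and 0.29). Psmd5 (S5b) was at 41.9 and 40.6 for WT versus 40.0 and 40.1 for cKO at 0 h, and at 13.8 and 17.5 for WT versus 10.0 and 8.88 for cKO at 4 h. Its fall was 1.40 on the log2 scale in WT (adjusted p = 4.47e-06 from limma) and 2.07 in cKO (adjusted p = 3.53e-07 from limma), and it was called lower under all 4 scalings in both genotypes. Psmd10 (gankyrin) was at 52.0 and 46.2 for WT versus 46.4 and 49.8 for cKO at 0 h, and at 76.3 and 75.6 for WT versus 105 and 98.7 for cKO at 4 h. The log2 fold changes were 0.63 in WT and 1.08 in cKO.

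Other genes of the pathway were followed from a list of 27 partners and regulators, of which 24 were in the tables. With stimulation 2 were higher and 15 lower in WT, against 16.9% higher and 70.1% lower of all tested genes, and 5 higher and 13 lower in cKO, against 17.3% and 69.2%. With median-centring these became 16 and 5 in WT, against 40.6% and 38.1%, and 16 and 4 in cKO, against 37.8% and 38.9%. Pomp, the maturation factor that the immunoproteasome core also needs, rose from 192 and 144 to 296 and 327 in WT, a log2 difference of 0.91 (adjusted p = 5.65e-05 from limma), and Txnl1, a thioredoxin-like protein of the 19S particle, rose by 0.62 in WT and 0.97 in cKO. Ddi2, the protease that activates the transcription factor Nfe2l1 for proteasome genes, fell by 3.88 in WT and 3.49 in cKO, while Nfe2l1 itself had 0.06 and 0.17 and was not called.

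Of 14 genes that supply and present class I peptides, 13 were higher and 1 (Canx) lower with stimulation in each genotype, against 16.9% higher and 70.1% lower of all tested genes in WT and 17.3% and 69.2% in cKO. With median-centring all 14 were higher, against 40.6% and 37.8% of all genes. Tap1 had log2 fold changes of 4.11 in WT and 4.53 in cKO, and the interferon-regulated transcription factor Irf1 had 4.23 and 4.77. These lie above the 2.32 and 3.15 of Psmb8 on the same scale.

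The second question was how the loss of Nudt21 bore on the proteasome genes. At 0 h, 3 of the 48 were higher and 3 lower in cKO than in WT by limma, against 7.54% higher and 7.95% lower of all tested genes, so their number was near the background. The genes higher were Psmd11, Psmd8 and Psmb6, and those lower were Psmb9, Psmb8 and Psmd7. Psmb7 had 0.37 (adjusted p = 0.0524 from limma) and was called higher under the 3 other scalings (0.49 on the deposited scale, 0.38 with median-centring and 0.42 with quantile normalization). By the rule of a fold above 1.5 with an unadjusted p under 0.05, Psmd11 was higher and Psmb9 lower, against 5.69% and 6.66% of all genes. On the deposited scale, with no scaling between samples, 8 were higher and 1 lower, against 11.7% and 4.79% of all genes.

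Psmd11 had the largest positive difference at 0 h, at 92.0 and 92.6 in cKO against 57.9 and 55.8 in WT, a log2 fold change of 0.70 (standard error 0.079, adjusted p = 5.75e-04 from limma). At 4 h it was at 116 and 121 in cKO against 82.2 and 83.1 in WT, a log2 difference of 0.52 (adjusted p = 0.00119 from limma). A noncoding gene, A730017L22Rik, matches 1501 bases of the Psmd11 transcript at 97.9% identity, so part of its reads may be shared. Psmd8, another lid subunit and the highest of the 49 genes in WT at 0 h, was at 508 and 470 in cKO against 331 and 339 in WT at 0 h, and at 421 and 443 against 307 and 294 at 4 h. Its log2 fold changes were 0.55 (adjusted p = 0.00196) and 0.52 (adjusted p = 0.00113 from limma). Psmb6 had 0.48 at 0 h (adjusted p = 0.00356) and 0.56 at 4 h (adjusted p = 7.94e-04 from limma). These 3 genes did not overlap between genotypes at either time and were called under all 4 scalings at both.

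Of the immunosubunits, Psmb9 and Psmb8 were lower in cKO at 0 h. Psmb9 differed by -0.82 on the log2 scale (standard error 0.148, adjusted p = 0.00572 from limma) and was called lower under all 4 scalings (-0.70 to -0.94), and its adjusted p was 0.05002 when only the 0 h samples were fitted. Psmb8 differed by -0.38 (adjusted p = 0.0149 from limma), and its adjusted p was 0.0714 on the deposited scale, 0.0676 without WT replicate 2, 0.106 without cKO replicate 3 and 0.11 without cKO replicate 4 of 0 h. Psmb10 had -0.17 (adjusted p = 0.194 from limma), with both cKO samples below both WT samples. Psmd7, the lid subunit, was at 60.8 and 64.7 in cKO against 79.8 and 77.6 in WT at 0 h and at 90.4 and 84.1 against 85.1 and 94.4 at 4 h. Its difference at 0 h was -0.33 (adjusted p = 0.039 from limma), and the adjusted p was 0.161 on the deposited scale and between 0.0741 and 0.25 without any one of WT replicate 1, WT replicate 2, cKO replicates 3 and 4 at 0 h or cKO replicates 3 and 4 at 4 h.

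Markers moved with genotype as well. Of the 8 macrophage markers, 4 were lower (Adgre1, Csf1r, Itgam and Fcgr1) and 1 higher (Cd68) in cKO at 0 h, against 7.95% lower and 7.54% higher of all tested genes, and the Fc receptor gene Fcgr1 had a log2 fold change of -1.02. Of the 14 genes of the class I list, 1 was higher and 4 lower in cKO at 0 h, against the same shares, with Tap1 at 23.5 and 23.5 in cKO against 34.4 and 38.7 in WT. At 4 h, 3 markers were higher in cKO (Cd68 by 0.86, Lyz2 by 0.61 and Mertk by 0.31 on the log2 scale) and 4 lower (Adgre1 at -0.68, Spi1 at -0.65, Fcgr1 at -0.50 and Itgam at -0.32), against 21.5% and 12.4% of all tested genes. The part of the markers in the genotype differences at 0 h and at 4 h was not tested.

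At 4 h, 11 of the 48 were higher in cKO and 4 lower by limma, against 21.5% higher and 12.4% lower of all tested genes. By the rule of a fold above 1.5 none was higher (0 genes, against 15.0% of all), since the largest log2 fold change was 0.56, and Psmd5 was lower (8.25% of all). The median gene was shifted by 0.08 and the median proteasome gene by -0.005. With median-centring 8 were higher and 9 lower (17.1% and 21.6% of all genes), and on the deposited scale, where the median gene was shifted by 0.29, 20 were higher and 1 lower, against 37.7% and 6.58% of all genes. Called under all 4 scalings were 8 genes higher, Psmb5, Psmb6, Psmb8, Psmb10, Psmd8, Psmd10, Psmd11 and Psmf1, and 1 lower, Psmd5. For all tested genes such a joint share is not given. It cannot exceed 16.7% higher, the share with quantile normalization, and 6.58% lower, the share on the deposited scale.

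Among the catalytic genes at 4 h, Psmb5 differed by 0.56 (standard error 0.099, adjusted p = 0.00258 from limma), Psmb10 by 0.52 (adjusted p = 0.00138) and Psmb8 by 0.45 (adjusted p = 0.00333 from limma). Psmb7 had 0.28 (adjusted p = 0.0815 from limma), which was called on the deposited scale (0.49, adjusted p = 0.006) and without WT replicate 2 of 4 h (0.43, adjusted p = 0.0118), and was 0.12 without WT replicate 1 of 4 h. Psmb9 had -0.19 (adjusted p = 0.352 from limma), turning to 0.02 on the deposited scale. Psmf1 (PI31), an inhibitor of the core in vitro, was at 44.4 and 49.1 in cKO against 30.6 and 34.4 in WT, a log2 difference of 0.52 (adjusted p = 0.00808 from limma), and at 48.9 and 50.1 against 40.7 and 49.0 at 0 h. Without cKO replicate 4 of 4 h, the adjusted p of Psmf1 was 0.0827, and without cKO replicate 3 of 4 h that of Psmd10, which differed by 0.42, was 0.0734.

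The 4 genes lower in cKO at 4 h were Psmd5, Psma4, Psmd14 and Psma6. Psmd5 differed by -0.71 (standard error 0.134, adjusted p = 0.00351 from limma), and both cKO samples lay below both WT samples, whereas at 0 h all 4 samples were between 40.0 and 41.9. Psma4 was at 189 and 172 in cKO against 231 and 264 in WT, a difference of -0.45 (adjusted p = 0.00807 from limma), with an adjusted p of 0.0742 on the deposited scale, where it was -0.24, and of 0.0845 without cKO replicate 4 of 4 h. Psmd14 was at 98.3 and 92.6 against 115 and 126, and at 84.6 and 84.1 against 82.2 and 75.6 at 0 h. Psma6 was at 279 and 263 against 323 and 334, and at 193 and 189 against 211 and 191 at 0 h.

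The differences of Psmd14 and Psma6 were -0.34 (adjusted p = 0.0161) and -0.28 (adjusted p = 0.028 from limma). Neither was called on the deposited scale, where they were -0.13 and -0.07. Leaving out cKO replicate 3 or cKO replicate 4 of 4 h gave adjusted p-values of 0.0567 and 0.132 for Psmd14 and 0.0812 and 0.189 for Psma6. For Psma6 the adjusted p was also 0.0634 without WT replicate 2 of 4 h and 0.0572 without either cKO sample of 0 h. Both genes had WT and cKO samples apart at 4 h.

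The 3 remaining genes higher at 4 h had small differences that were not called with median-centring. Psma7 was at 270 and 272 in cKO against 216 and 219 in WT at 4 h, a log2 fold change of 0.32, and at 168 and 166 against 184 and 160 at 0 h. Psmb3 was at 147 and 156 against 117 and 123 at 4 h, a log2 fold change of 0.33, and at 113 and 118 against 122 and 104 at 0 h. Psme2b had 0.28. Without the intensity trend the adjusted p was 0.0646 for Psma7, 0.0752 for Psmb3 and 0.0696 for Psme2b, and that of Psmb3 was 0.0568 with quantile normalization and 0.0667 with no filter (all from limma). Each of these lost its call without cKO replicate 3 or cKO replicate 4 of 4 h, where the adjusted p was 0.0947 and 0.113 for Psma7, 0.077 and 0.17 for Psmb3 and 0.139 and 0.119 for Psme2b. Psmb3 also lost it without WT replicate 1 of 4 h (adjusted p = 0.0819) and Psme2b without cKO replicate 3 or 4 of 0 h (0.0519 and 0.0522, all from limma).

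The other activators were not called between genotypes by limma on relative coverage. Psme1 had -0.12 at 0 h and -0.12 at 4 h, Psme2 had 0.31 and 0.11, Psme3 had 0.25 and 0.04 and Psme4 had -0.02 and -0.01, and at 4 h each of these signs turned under at least 1 other scaling. Psme3 was called higher in cKO at 0 h on the deposited scale (0.38, adjusted p = 0.0153) and with quantile normalization (0.29, adjusted p = 0.0165), and the adjusted p at 0.25 was 0.0418 with no filter, 0.049 when only the 0 h samples were fitted and 0.0288 and 0.0287 without WT replicate 1 or 2 of 4 h. At 4 h it was called on the deposited scale (0.25, adjusted p = 0.0362 from limma). The partners and regulators had 0 genes higher and 2 lower in cKO at 0 h, against 7.54% higher and 7.95% lower of all tested genes, and 8 higher and 0 lower at 4 h, against 21.5% and 12.4%, among them the ubiquitin receptor Adrm1 (0.48) and the shuttle factors Ubqln2 (0.67) and Ubqln4 (0.63). With median-centring the partners had 4 higher and 1 lower at 4 h, against 17.1% and 21.6%. Of the 14 genes of the class I list at 4 h, 7 were higher and 1 lower, against the same 21.5% and 12.4%. With median-centring they were 3 and 3, against 17.1% and 21.6%. The chaperone Tapbp was at 2230 and 2278 in cKO against 1165 and 1220 in WT.

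**Figure D4:**
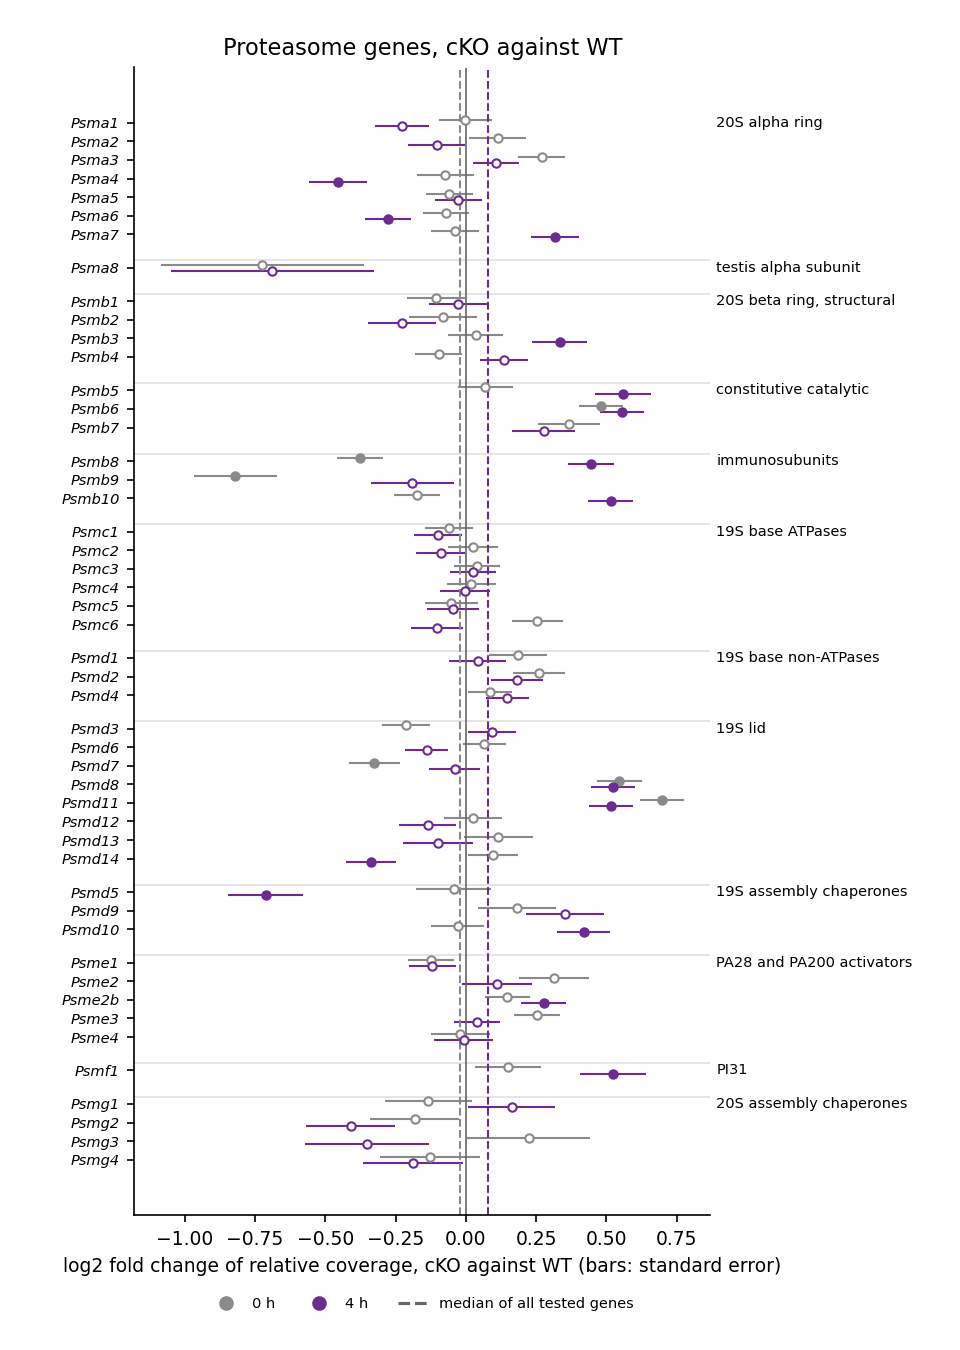
The log2 fold change of relative coverage in cKO against WT (x axis) of the 48 tested proteasome genes, grouped by role, at 0 h (grey) and 4 h (purple), with standard errors; filled points passed an adjusted p under 0.05 and open points did not. Dashed lines mark the median of all tested genes, and Psmd8, Psmd11 and Psmb6 lie between 0.48 and 0.70 at both times while Psmb8 and Psmb10 change sides.

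The last question was whether the response to stimulation differed between genotypes, which was tested as an interaction. It was positive for 3 and negative for 2 of the 48 genes, against 8.86% and 3.81% of all tested genes, or 3 and 1 by the fold rule (12.6% and 5.27%). The rise of Psmb8 was larger in cKO by 0.82 on the log2 scale (standard error 0.117, adjusted p = 0.00345 from limma) and that of Psmb10 by 0.69 (standard error 0.114, adjusted p = 0.00656 from limma). Both were called under all 4 scalings and without each sample in turn. For Psmb9 the difference was 0.63 (adjusted p = 0.0795 from limma), with an adjusted p of 0.0444 on the deposited scale and 0.0107 without WT replicate 2 of 0 h, where it was 0.88, while without WT replicate 1 of 0 h it was 0.38 (adjusted p = 0.134 from limma). The median interaction over all genes was 0.10, and Psmb8 stood 0.72 and Psmb10 0.59 above it.

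Psmb5, Psmd14 and Psmd5 also passed, by little. Their interactions were 0.49 (adjusted p = 0.049), -0.44 (adjusted p = 0.0494) and -0.67 (adjusted p = 0.0476 from limma), and 0 of the 3 was called under all 4 scalings. The adjusted p of Psmb5 was 0.0547 to 0.184 without any 1 of 7 samples, that is every sample but WT replicate 2 of 0 h. For Psmd14 it was 0.0553 to 0.198 without any 1 of 6 samples, all but WT replicate 1 of 0 h and WT replicate 1 of 4 h, and for Psmd5 0.0871 to 0.182 without any 1 of 6, all but the WT samples of 4 h. Of the class I list 6 genes had a positive interaction and 0 a negative one, against 8.86% and 3.81% of all tested genes (3 and 0 with median-centring, against 7.23% and 9.14%), Tapbp with 1.03, H2-K1 with 0.87 and Tap2 with 0.62 among them.

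Since Nudt21 binds UGUA in RNA, the annotated 3'UTRs (GENCODE M21, GRCm38) were read for that motif. Those of the proteasome genes were short, with a median of 213 bases against 1000 for all 15684 genes with one. UGUA was present in 69.4% of them, against 86.1% of all, at a median of 5.85 per kilobase against 4.95. The 3'UTR of Psmd11 has 1539 bases and 9 motifs and that of Psmd8 has 422 bases and 1, while that of Psmb6 has 70 bases and 0 motifs, so the 3 genes higher in cKO at both times differed in this feature. Of the 6 other genes called at 4 h under all 4 scalings, Psmd5 has 25 motifs in 2842 bases, Psmf1 16 in 2822, Psmd10 6 in 873 and Psmb10 1 in 55, and Psmb5 and Psmb8 have 0. Psma2 and Psma3, not called between genotypes at either time on relative coverage, have 15 and 16. Psma3 had 0.27 at 0 h (adjusted p = 0.0548 from limma). It was called higher in cKO at 0 h on the deposited scale and with quantile normalization, and at 4 h on the deposited scale. For Psmd11 and Psmd8, the genes with the largest positive differences at 0 h, the copy nearest to the 3' end of the annotated transcript is shown in its surroundings of 30 bases, as DNA on the gene's strand with the motif in capitals.
Psmd11, chr11:80473154-80473183, plus strand: catcattatcaaaTGTAcaaacggttcttg
Psmd8, chr7:29174194-29174223, minus strand: catttgagccctcTGTAataaatggtatga

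The deposited value is an average over the whole gene and does not resolve parts of a 3'UTR. The copy of the motif in Psmd11 begins at base 1458 of the 3'UTR and that in Psmd8 at base 400.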

How the data were processed

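RNA was extracted from BMDMs of WT and Nudt21-cKO mice at 0 h and 4 h (2 samples in each of 4 groups) and sequenced as paired ends from NEBNext Ultra libraries, a kit that does not mark strand. The submitters' processing notes name HISAT2 2.2.1, StringTie 2.1.7 and mm10/GRCm38. The authors deposited a value for each gene whose unit the tables do not name, taken here as mean read coverage, a signal that was not scaled between samples, with fold changes and p-values of their own comparisons, which were not used here. Samples were grouped by the labels' genotype and by the time in their titles, since the treatment label names the stimulation for every sample.

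Coverage was divided by its sum per sample and multiplied by 1000000 (relative coverage). limma 3.58.1 in R 4.3.3 was fitted to log2(relative coverage + 0.1) over all 8 samples, with an intensity trend, for the 11372 of 21080 genes with a mean of at least 1. A gene was called at a Benjamini-Hochberg adjusted p under 0.05 over these genes, and fold changes are on the log2(value + 0.1) scale. The fit was tested on simulated data. The paper states a depth in reads per sample, but coverage per base does not give the reads of each gene, so no counting interval is given. Alternatives were the deposited scale, median-centring, quantile normalization, pseudocounts of 1 and 0.01, no filter or a mean of at least 5, no intensity trend, fits of only the groups compared, a replicate block and leaving out each sample. Near-identical transcripts were found with blastn 2.17.0. Every gene that matched the symbol rule is accounted for by role. The members and lists were chosen with earlier results of these data known.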

Additional observations from a re-analysis of the deposited data

Results flagged for a closer look

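Between the genotypes, the response to stimulation differed by the interaction test of limma for 5 genes. The difference of the log2 fold change (cKO minus WT) was 0.82 for Psmb8 (adjusted p = 0.00345) and 0.69 for Psmb10 (adjusted p = 0.00656 from limma), the β5i and β2i immunosubunits. It was 0.49 for Psmb5 (adjusted p = 0.049), -0.44 for Psmd14 (adjusted p = 0.0494) and -0.67 for Psmd5 (adjusted p = 0.0476 from limma), values close to the threshold.

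In 3 further genes every sample of one group lay on the opposite side from the other group, while the interaction did not pass the threshold. Psmc6, a base ATPase, was higher in both cKO samples at 0 h and lower in both at 4 h, with an interaction of -0.36 (adjusted p = 0.1 from limma). Psmd6, a lid subunit, did the same, with -0.20 (adjusted p = 0.247 from limma). Psmd3, also of the lid, was lower after stimulation in both WT samples and higher in both cKO samples, with 0.31 (adjusted p = 0.13 from limma). Such a change of side between 0 h and 4 h without a called interaction was found in 2 of 48 proteasome genes, against 6.17% of the 11372 tested genes, and one between WT and cKO in 2 (Psmd3 and Psmd6), against 0.879%. With median-centring Psmd3 and Psmd6 were called higher with stimulation in both genotypes, at 0.82 and 1.15 in WT and 0.98 and 0.80 in cKO, so the opposite response to stimulation was not found on that scale. With 2 samples in a group this pattern is no test of a difference.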

How the results depend on the processing

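The counts of called proteasome genes depended on the scaling. With median-centring the genes called with stimulation became 43 higher and 3 lower in WT (40.6% and 38.1% of all genes) and 43 and 4 in cKO (37.8% and 38.9%). Those higher in cKO at 0 h became 5 (9.38%), those lower at 4 h became 9 (21.6%) and negative interactions became 4 (9.14%). Quantile normalization gave 11 lower in WT with stimulation (44.6% of all genes), 8 higher at 0 h (12.2%) and 4 negative interactions (6.91%). The deposited scale gave 8 higher and 1 lower at 0 h (11.7% and 4.79% of all genes) and 20 higher and 1 lower at 4 h (37.7% and 6.58%). It gave 6 positive and 0 negative interactions (12.6% and 2.98%). A fold above 1.5 with an unadjusted p under 0.05 left 6 lower with stimulation in WT (62.8% of all genes) and 7 in cKO (61.2%). At 0 h it left 1 higher (5.69%) and 1 lower (6.66%). At 4 h it left 0 higher (15.0%) and 1 lower (8.25%), and 1 interaction was negative (5.27%). Without the intensity trend 1 was lower at 0 h, 2 at 4 h and 0 interactions were negative, and 0 were negative with a pseudocount of 0.01 or no filter. A pseudocount of 1, or a fit of only the groups compared, gave 5 higher at 0 h, and that pseudocount moved the rise of the log2 ratio of Psmb9 to Psmb6 in cKO to 2.31. No share of all genes is given for the fits without the trend, with another pseudocount, filter or group choice, or without a sample. Those counts therefore cannot be set against a background. The cause of the changes in all these counts was not tested.

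With median-centring 12 genes called lower with stimulation in WT and 9 in cKO were called higher, and with quantile normalization 1 in each, Psmd9. The share of all tested genes that turned in this way is not given. With median-centring the median of all genes moved from -1.04 to 0.01 in WT and from -0.95 to -0.04 in cKO. The share of all genes called higher went from 16.9% to 40.6% in WT and from 17.3% to 37.8% in cKO. Among the genes given in full, directions reversed in WT for Psmb5 (0.67), Psme3 (0.73), Psme4 (0.76) and Psmg3 (0.23) with median-centring and for Psme4 (0.19) and Psmg3 (0.39) with quantile normalization. In cKO these reversed for Psme3 (0.38) and Psme4 (0.64) with median-centring and Psme4 (0.15) with quantile normalization. Between genotypes, values near 0 reversed on the deposited scale for Psme4 at 0 h (0.10) and for Psmb9 (0.021), Psme1 (0.093) and Psme4 (0.20) at 4 h, with median-centring for Psme2 (-0.021) and Psme3 (-0.093) at 4 h, and with quantile normalization for Psme3 (-0.016) at 4 h.

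Leaving out 1 sample gave 19 to 21 genes higher and 12 to 16 lower with stimulation in WT, and 19 to 21 and 10 to 16 in cKO. At 0 h it gave 3 to 7 higher (5 without WT replicate 1 of 0 h, 7 without either WT sample of 4 h) and 1 to 3 lower (1 without WT replicate 2, cKO replicate 3 or cKO replicate 4 of 0 h). At 4 h it gave 7 to 14 higher (7 without cKO replicate 3 or 4 of 4 h) and 1 to 6 lower (2 without cKO replicate 3 and 1 without cKO replicate 4 of 4 h). Interactions ranged from 2 to 6 positive (6 without WT replicate 2 of 0 h) and 0 to 2 negative (0 without WT replicate 2, cKO replicate 3 or cKO replicate 4 of 0 h or cKO replicate 3 or 4 of 4 h, 1 without WT replicate 2 of 4 h). A group left with 1 sample was taken to vary like the others. Small genotype differences reversed for Psmb5 (-0.067 to 0.21) and Psme4 (-0.12 to 0.079) at 0 h without WT replicate 2, for Psme2 (-0.0495 to 0.27) at 4 h without WT replicate 2, for Psme3 (-0.0044 to 0.082) without WT replicate 1 and for Psme4 (-0.086 to 0.072) without WT replicate 2 or, at 0.051, cKO replicate 4 of 4 h.

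The labels give the same replicate numbers at 0 h and 4 h within a genotype, but same-numbered samples deviated together only weakly, with r = 0.123 in WT and 0.0686 in cKO over 11372 genes, so they were not treated as pairs. With the replicate block 0 interactions were negative (Psmd5 adjusted p = 0.0522 and Psmd14 0.058 from limma).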
